A study of Homo sapiens with 6 samples.

Results

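The genes described here were the expressed antisense RNA genes of RH30 rhabdomyosarcoma cells, in which the myogenic transcription factor MyoD had been deleted by CRISPR. A gene was taken as antisense when its symbol ended in -AS followed by a digit, which names a transcript made from the strand opposite a partner gene. Where several transcript clusters stood for a gene, the one of highest average was used, and the gene was counted as expressed when that average over the 6 arrays was 5 or more on the log2 scale. Of 761 antisense genes on the array, 220 met this level and 541 did not, among 22448 genes with a symbol in all. The genes were thus selected on their mean level over both groups, so that levels are given below as a description and only the difference between the groups was tested.

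RH30 is a human alveolar rhabdomyosarcoma line, a tumor of the skeletal muscle lineage that carries the PAX3-FOXO1 fusion. Cells of both groups carried the IκBα super-repressor (SR), a form of IκBα that blocks NF-κB. The RH30-SR MyoDΔ group had 3 arrays, all from a single clone with number 29, and the RH30-SR group had 3 arrays without the deletion. Whether the RH30-SR cells also carried Cas9 with some guide RNA is not in the labels, nor is how far the triplicate cultures were separate. The p-values therefore cover variation among these arrays, which may be technical, and none among clones. Affymetrix Human Transcriptome 2.0 arrays were used on total RNA, and values are log2 expression after RMA, the authors' normalization.

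Antisense RNAs are long noncoding transcripts that often start at, or close to, the promoter of a protein-coding gene and run the other way. Some act on the partner through chromatin, transcription or pairing with its mRNA, many have no known effect, and much of this class is held at a low level by decay in the nucleus. A pair that shares a promoter region can move together or apart when a transcription factor is lost, and both strands have to be read separately to see it. MyoD binds the E-box, a short palindromic element of the form CANNTG, and favours CAGCTG in muscle genes.

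Genome sequence upstream of the starts is shown for the 3 pairs in which both genes were lower in RH30-SR MyoDΔ cells, for the antisense gene with the largest decrease, and for a pair in which the antisense gene was higher. Each window runs from 250 bases before to 50 bases after the RefSeq start, 5′ to 3′ on the strand of the gene, in assembly GRCh38.p14. Capitals mark every CANNTG match, which reads the same on both strands. The windows lay at chr4:144645970-144646269 on the minus strand for HHIP-AS1, chr12:89708705-89709004 on the plus strand for ATP2B1-AS1, chr12:89709317-89709616 on the minus strand for ATP2B1, chr12:57725990-57726289 on the plus strand for AGAP2-AS1, chr12:57742112-57742411 on the minus strand for AGAP2, chr18:3593864-3594163 on the plus strand for DLGAP1-AS1 and chr10:45000754-45001053 on the minus strand for ZNF22-AS1.
HHIP-AS1: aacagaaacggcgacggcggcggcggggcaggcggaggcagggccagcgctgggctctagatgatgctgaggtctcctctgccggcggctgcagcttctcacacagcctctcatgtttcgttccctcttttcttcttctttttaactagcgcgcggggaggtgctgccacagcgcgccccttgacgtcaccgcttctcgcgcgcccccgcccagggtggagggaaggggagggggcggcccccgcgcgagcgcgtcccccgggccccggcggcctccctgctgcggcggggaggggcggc
ATP2B1-AS1: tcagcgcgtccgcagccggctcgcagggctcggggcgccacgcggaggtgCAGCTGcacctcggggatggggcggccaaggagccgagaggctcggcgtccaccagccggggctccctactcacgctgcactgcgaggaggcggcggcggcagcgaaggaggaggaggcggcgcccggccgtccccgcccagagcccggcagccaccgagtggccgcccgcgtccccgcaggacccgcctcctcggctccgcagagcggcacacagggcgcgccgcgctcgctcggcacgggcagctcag
ATP2B1: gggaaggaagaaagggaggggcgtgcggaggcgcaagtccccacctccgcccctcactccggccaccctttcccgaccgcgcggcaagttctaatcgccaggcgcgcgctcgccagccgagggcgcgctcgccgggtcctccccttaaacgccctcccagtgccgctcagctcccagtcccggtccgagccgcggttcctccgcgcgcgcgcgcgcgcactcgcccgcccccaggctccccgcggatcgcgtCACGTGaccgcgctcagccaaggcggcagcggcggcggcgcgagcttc
AGAP2-AS1: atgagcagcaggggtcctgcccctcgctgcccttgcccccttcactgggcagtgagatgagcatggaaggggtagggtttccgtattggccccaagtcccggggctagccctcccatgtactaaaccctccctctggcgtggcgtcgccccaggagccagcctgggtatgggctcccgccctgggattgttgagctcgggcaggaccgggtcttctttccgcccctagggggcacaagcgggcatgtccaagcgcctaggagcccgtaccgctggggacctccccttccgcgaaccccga
AGAP2: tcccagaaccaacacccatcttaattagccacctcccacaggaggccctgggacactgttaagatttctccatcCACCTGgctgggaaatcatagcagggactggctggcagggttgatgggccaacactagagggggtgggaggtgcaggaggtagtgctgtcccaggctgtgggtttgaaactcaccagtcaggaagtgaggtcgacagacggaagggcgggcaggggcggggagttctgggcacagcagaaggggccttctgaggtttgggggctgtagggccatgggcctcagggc
DLGAP1-AS1: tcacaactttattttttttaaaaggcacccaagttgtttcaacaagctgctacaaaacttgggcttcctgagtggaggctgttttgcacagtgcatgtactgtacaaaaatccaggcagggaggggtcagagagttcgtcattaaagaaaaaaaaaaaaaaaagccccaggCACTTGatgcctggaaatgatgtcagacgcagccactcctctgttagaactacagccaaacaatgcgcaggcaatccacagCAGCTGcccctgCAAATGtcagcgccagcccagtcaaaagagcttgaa
ZNF22-AS1: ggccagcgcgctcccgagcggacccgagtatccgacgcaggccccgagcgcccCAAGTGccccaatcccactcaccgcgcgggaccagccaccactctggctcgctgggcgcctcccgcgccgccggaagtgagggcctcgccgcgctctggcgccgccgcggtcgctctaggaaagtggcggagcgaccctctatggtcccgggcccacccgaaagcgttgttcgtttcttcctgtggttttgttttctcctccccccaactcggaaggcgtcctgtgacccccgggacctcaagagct
The window of HHIP-AS1 shares 236 bases with that of HHIP on the other strand, the starts lying 137 bases apart, and that of ZNF22-AS1 shares 219 bases with that of ZNF22, with starts 120 bases apart. Neither window of the HHIP pair held a CANNTG match. ATP2B1-AS1 and ATP2B1 start 411 bases apart and have separate windows with 1 match each, of which the one in ATP2B1-AS1 is CAGCTG. AGAP2-AS1 overlaps AGAP2 on the other strand, but its start is 15921 bases from that of AGAP2. DLGAP1-AS1 held 3 matches, of which 1 was CAGCTG. A match is a description of the letters and does not show that a factor binds there.

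The arrays were first checked against their labels. MYOD1, the gene for MyoD, measured 6.95, 7.16 and 6.90 in RH30-SR MyoDΔ cells, against 9.09, 9.50 and 9.43 in RH30-SR cells, a log2 difference of -2.34 ± 0.12 (SE, limma adjusted p = 0.000102). Of 10 markers of rhabdomyosarcoma and muscle, 8 were lower, PAX3 was higher and MYH3 was not called. Of 15 markers of leukocytes, endothelium, epithelium and neural cells, PECAM1 alone was called, and it was lower. Their mean levels ran from 2.33 to 5.34 in RH30-SR MyoDΔ cells and from 2.30 to 5.37 in RH30-SR cells, within the range where most of the array lies, since the median of all clusters was 4.295. Arrays correlated at 0.994 to 0.997 within a group and at 0.989 to 0.992 between groups. RH30-SR replicate 2 was the array farthest from the others of its group in 94 of the 220 antisense genes, against 55 and 62 for the other RH30-SR arrays.

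A gene was called at an adjusted p below 0.05 over all 65535 clusters and a fold change over 25%, and 9 of 220 antisense genes (4.09%) were called, 4 higher and 5 lower in RH30-SR MyoDΔ cells. Over all genes at the same level or above, 10.3% were called, 4.15% higher and 6.19% lower, and over genes of any level 7.01% were called. The values of the groups did not overlap in 63 antisense genes (28.6%), against 47.0% of all genes at 5 or more. Without the fold threshold 14 of 220 antisense genes passed, against 1970 of 13257 genes at 5 or more (14.9%). An unadjusted p below 0.05 was found in 44 antisense genes (20%), against 34.6% of all genes at 5 or more. The share called among antisense genes was thus below the background by each of these counts, which were not compared by a test.

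The changes were also small. Of the 220 genes, 140 changed by less than 0.1 and 188 by less than 0.2 on the log2 scale, with 114 below 0 and 104 above. The median size of the log2 difference was 0.07, against 0.09 for all genes at 5 or more, while the median SE was 0.064 and 0.057. None changed past 2-fold, a size that only 148 of 13257 genes at 5 or more reached, so that its absence here was not read as a difference. Among the 211 antisense genes not called, the 95% interval lay within a fold change of 25% on both sides in 162 and reached beyond it in 49. Of all 220 antisense genes, called or not, 73.6% had such an interval, near the 69.8% of all genes at 5 or more.

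**Figure D1:**
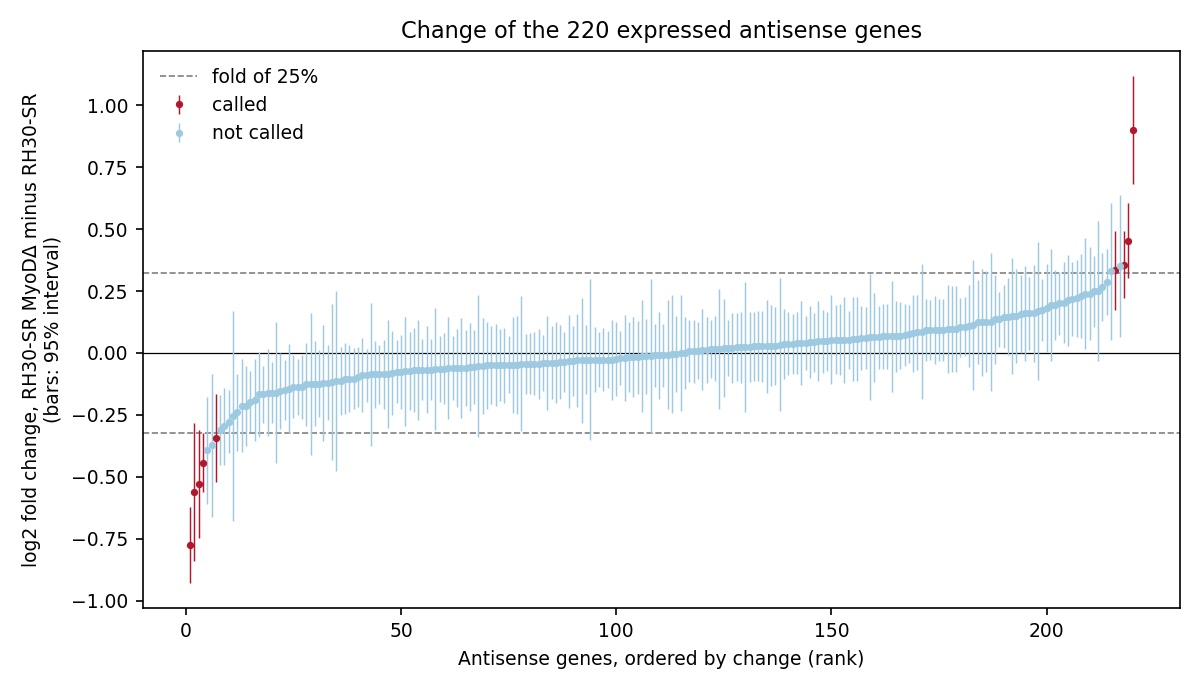
Log2 fold change of the 220 expressed antisense genes, RH30-SR MyoDΔ minus RH30-SR, ordered by change, with 95% intervals from limma as bars and a fold of 25% as dashed lines. The 9 called genes, 5 below and 4 above 0, lie at the ends, from -0.77 for DLGAP1-AS1 to 0.90 for PKD1L1-AS1.

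Antisense genes sat low on the scale, with a median level of 5.57 against 6.46 for all genes at 5 or more, and the share of calls moved with level. At levels of 5 to under 5.5, 0 of 100 antisense genes were called, against 4.72% of all genes in that range, although 11 had an unadjusted p below 0.05. A level of 5 is no limit of detection, since the neural markers GFAP and RBFOX3, which belong to astrocytes and neurons, averaged 5.35 and 5.03 over the 6 arrays, and how many of these 100 antisense genes were transcribed at all was not tested. At 5.5 to under 6, 4 of 59 (6.78%) were called, against 7.14% of all genes, and at 6 to under 7, 3 of 51 (5.88%), against 10.6%. At 7 or more, 2 of 10 were called, against 14.6%. The part of probe number and probe affinity in these levels was not tested, and the levels of different genes are therefore not an order of abundance. Long intergenic noncoding RNA genes had a similar median level of 5.61, and 18 of 110 (16.4%) were called, 12 higher and 6 lower. The difference from the 9 of 220 antisense genes was not tested.

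**Figure D2:**
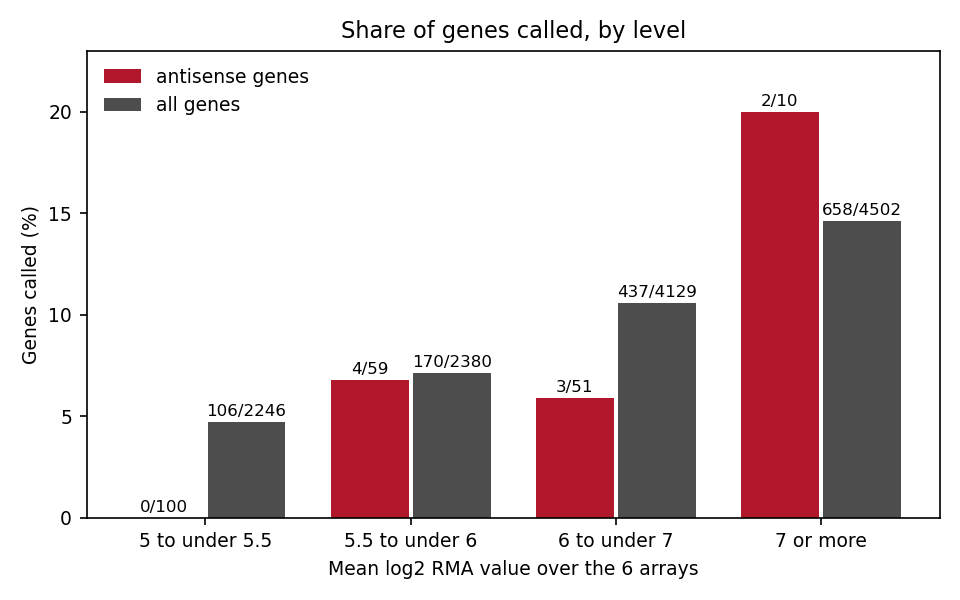
Percent of genes called in RH30-SR MyoDΔ against RH30-SR cells, by mean log2 RMA value over the 6 arrays, for expressed antisense genes (left bars) and all genes (right bars), with the counts above the bars. Antisense genes had 0 calls of 100 in the lowest range and 2 of 10 in the highest.

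Of the 5 antisense genes that were lower, DLGAP1-AS1, a spliced noncoding RNA described in several tumors, had the largest decrease. It measured 6.22, 6.20 and 6.29 in RH30-SR MyoDΔ cells, against 6.90, 7.06 and 7.07 in RH30-SR cells. The difference was -0.77 ± 0.065 (SE, adjusted p = 0.000854) and the groups lay far apart relative to the spread within each. Its partner DLGAP1, a scaffold protein of the synapse, was not analysed here.

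HHIP-AS1 runs head to head with HHIP, the cell surface protein that binds hedgehog ligands and limits their signal. HHIP-AS1 measured 5.80, 5.80 and 5.81 in RH30-SR MyoDΔ cells, against 6.20, 6.30 and 6.24 in RH30-SR cells, a difference of -0.44 ± 0.050 (adjusted p = 0.00338). HHIP itself measured 7.08, 7.06 and 7.07 in RH30-SR MyoDΔ cells, against 8.92, 8.66 and 8.85 in RH30-SR cells, a difference of -1.74 ± 0.074 (adjusted p = 4.30e-05). Both genes were lower with no overlap, and the antisense gene fell by less. HHIP-AS1 lay low on the scale, with a mean of 6.025 over the 6 arrays, while the neural marker GFAP averaged 5.35. Whether the low end of the scale limited its fall was not tested, and the smaller fall is not read as a weaker response. On each array the value of HHIP-AS1 minus that of HHIP was -1.28, -1.26 and -1.26 in RH30-SR MyoDΔ cells, against -2.72, -2.36 and -2.61 in RH30-SR cells. The shift of 1.30 ± 0.11 (SE) had an exact two-sided permutation p of 0.1, which is the smallest that 3 against 3 arrays allow, here and for every pair below.

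ATP2B1-AS1 is the partner transcript of ATP2B1, a calcium pump of the plasma membrane. It measured 5.72, 5.69 and 5.48 in RH30-SR MyoDΔ cells, against 6.03, 6.43 and 6.11 in RH30-SR cells, with a difference of -0.56 ± 0.12 (adjusted p = 0.0379). ATP2B1 measured 8.26, 8.32 and 8.32 in RH30-SR MyoDΔ cells, against 9.16, 8.94 and 9.15 in RH30-SR cells, with a difference of -0.78 ± 0.072 (adjusted p = 0.00129). Both genes were lower in all RH30-SR MyoDΔ arrays. The 2 changes were not distinguished (0.22 ± 0.21, exact p = 0.4). The call on ATP2B1-AS1 was lost when RH30-SR replicate 2, 3 or any of the RH30-SR MyoDΔ arrays was left out, with an adjusted p of up to 0.123.

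AGAP2-AS1 had the highest value of all antisense genes, with a mean of 8.75 over the 6 arrays. It measured 8.55, 8.55 and 8.34 in RH30-SR MyoDΔ cells, against 8.92, 9.17 and 8.94 in RH30-SR cells, a difference of -0.53 ± 0.092 (adjusted p = 0.0189). AGAP2, a GTPase that activates phosphoinositide kinase signaling, measured 6.33, 6.30 and 6.25 in RH30-SR MyoDΔ cells, against 6.62, 6.92 and 6.73 in RH30-SR cells, a difference of -0.46 ± 0.082 (adjusted p = 0.0202). The pair moved by similar amounts, with a difference between the changes of -0.07 ± 0.056 (exact p = 0.5). The DNA copy number of this locus was not measured in either group, and its part in the level and the change was not tested. Leaving out RH30-SR replicate 3 or any RH30-SR MyoDΔ array ended the calls on both AGAP2-AS1 and AGAP2, with adjusted p values of up to 0.0631 and 0.0841, and with the replicate number as a block AGAP2 alone was lost (adjusted p = 0.0519).

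ZNF674-AS1, on the X chromosome, shares a promoter region with ZNF674, a zinc finger gene whose start is 69 bases away. ZNF674-AS1 measured 6.93, 7.09 and 6.98 in RH30-SR MyoDΔ cells, against 7.29, 7.27 and 7.47 in RH30-SR cells, a difference of -0.34 ± 0.075 (adjusted p = 0.0433). ZNF674 measured 5.89, 5.98 and 5.96 in RH30-SR MyoDΔ cells, against 5.89, 5.78 and 5.94 in RH30-SR cells, and was not called (0.07 ± 0.061, adjusted p = 0.606). The antisense gene was lower while the ranges of its partner overlapped, and the shift between them was -0.42 ± 0.047. Leaving out any single array ended the call on ZNF674-AS1, with adjusted p values of 0.0646 to 0.143.

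The 4 antisense genes that were higher were PKD1L1-AS1, ZNF22-AS1, KTN1-AS1 and THAP9-AS1. PKD1L1-AS1, whose partner is a polycystin of left-right patterning, measured 6.43, 6.60 and 6.54 in RH30-SR MyoDΔ cells, against 5.80, 5.48 and 5.59 in RH30-SR cells. This increase of 0.90 ± 0.092 (adjusted p = 0.00214) was the largest change of the 220 genes in either direction. PKD1L1 measured 3.97, 3.87 and 4.01 in RH30-SR MyoDΔ cells, against 3.97, 3.96 and 3.94 in RH30-SR cells, below the median of the array in both. The partner had no call (-0.01 ± 0.055, adjusted p = 0.97), and the shift between the genes was 0.91 ± 0.12.

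ZNF22-AS1 and ZNF22, a zinc finger gene, lay on opposite sides of 0. ZNF22-AS1 measured 6.12, 6.22 and 6.11 in RH30-SR MyoDΔ cells, against 5.61, 5.70 and 5.78 in RH30-SR cells, an increase of 0.45 ± 0.064 (adjusted p = 0.00831). ZNF22 measured 7.04, 7.02 and 6.93 in RH30-SR MyoDΔ cells, against 7.35, 7.25 and 7.32 in RH30-SR cells, a difference of -0.31 ± 0.056 (adjusted p = 0.0226) that stayed just under the fold threshold. The groups did not overlap for either gene, and ZNF22-AS1 minus ZNF22 shifted by 0.76 ± 0.075 across starts only 120 bases apart. With limma's array weights, or without RH30-SR replicate 2, both genes of this pair were called, in opposite directions.

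KTN1-AS1 pairs with KTN1, or kinectin, a membrane receptor for kinesin. It measured 6.26, 6.14 and 6.13 in RH30-SR MyoDΔ cells, against 5.85, 5.79 and 5.82 in RH30-SR cells, an increase of 0.36 ± 0.057 (adjusted p = 0.0131), which was lost without RH30-SR MyoDΔ replicate 1 or RH30-SR replicate 3, with an adjusted p of up to 0.0536. KTN1 was 0.29 ± 0.080 above RH30-SR cells and did not pass (adjusted p = 0.094). THAP9-AS1, whose partner derives from a transposase, measured 5.87, 6.04 and 5.97 in RH30-SR MyoDΔ cells, against 5.69, 5.54 and 5.65 in RH30-SR cells, an increase of 0.33 ± 0.068 (adjusted p = 0.0335). Its partner THAP9 had a difference of 0.06 ± 0.051 (adjusted p = 0.588). Leaving out any single array ended the call on THAP9-AS1, with adjusted p values of 0.0508 to 0.119.

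**Figure D3:**
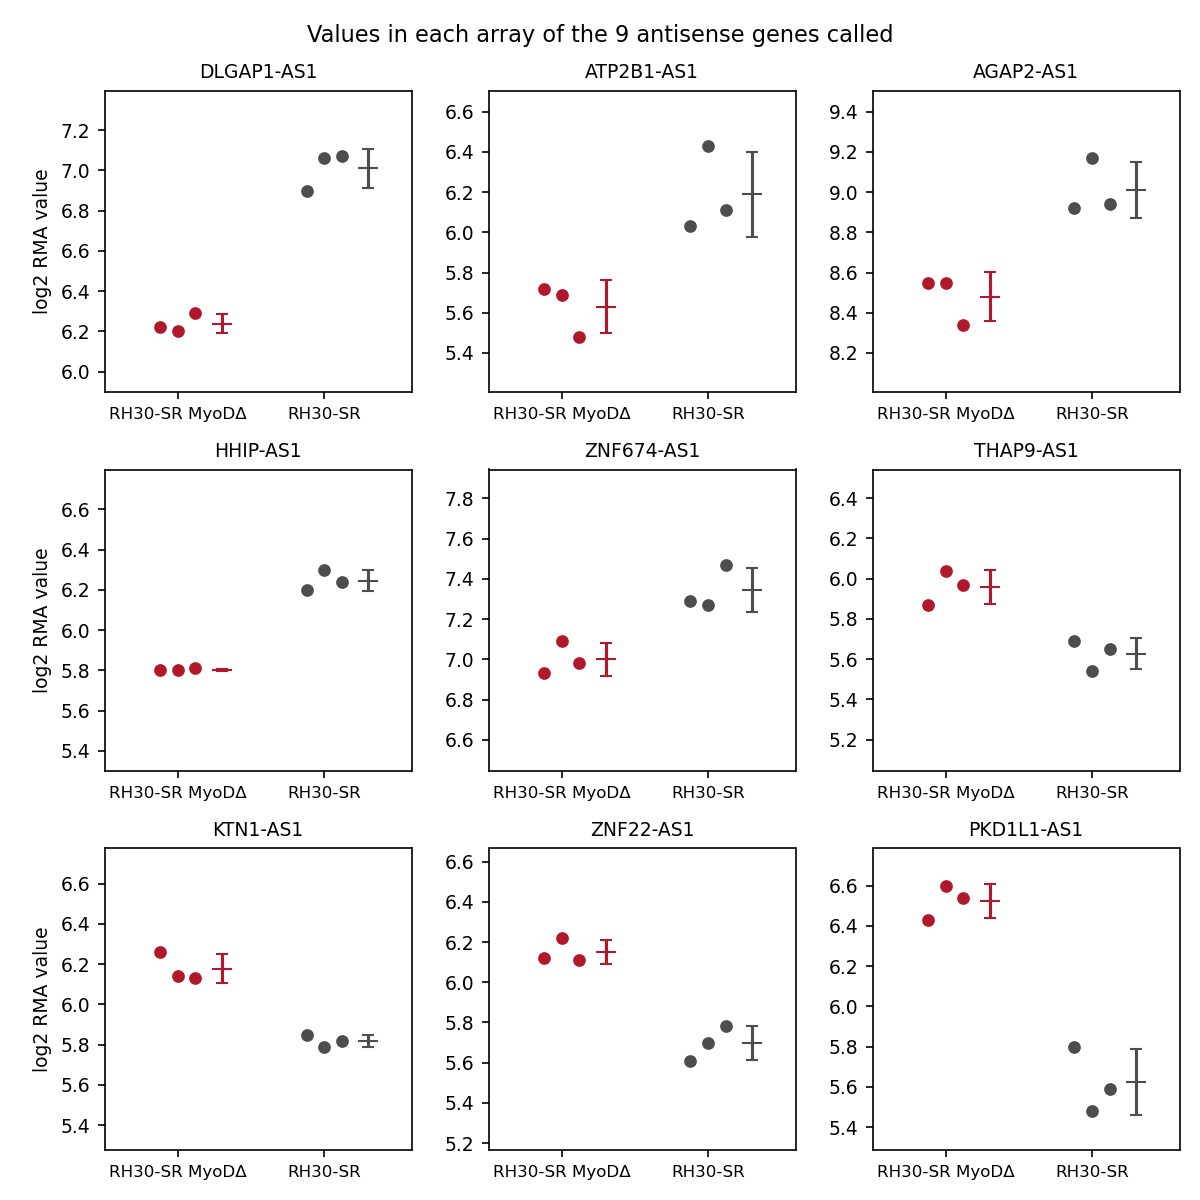
Log2 RMA value in each array of the 9 called antisense genes, with RH30-SR MyoDΔ arrays on the left and RH30-SR arrays on the right of each panel. Points are replicates 1 to 3 and bars are mean ± SD, over axes of equal length. The groups do not overlap in any panel, and the difference runs from -0.77 for DLGAP1-AS1 to 0.90 for PKD1L1-AS1.

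Of the other large changes, MID1IP1-AS1 and DLG3-AS1, both on the X chromosome, came close on the lower side. MID1IP1-AS1 measured 6.64, 6.77 and 6.81 in RH30-SR MyoDΔ cells, against 7.01, 7.31 and 7.08 in RH30-SR cells, a difference of -0.39 ± 0.091 (adjusted p = 0.0522). Its partner MID1IP1, which stimulates fatty acid synthesis, was called at -0.45 ± 0.096 (adjusted p = 0.0385). DLG3-AS1 measured 6.37, 6.45 and 6.20 in RH30-SR MyoDΔ cells, against 6.54, 6.97 and 6.63 in RH30-SR cells, and its -0.37 ± 0.12 did not pass (adjusted p = 0.148). Of the 10 antisense genes on the X chromosome, 6 had values below 0 and 1 was called, with a median of -0.06. DDX11-AS1, opposite a DNA helicase, measured 5.77, 5.55 and 5.62 in RH30-SR MyoDΔ cells, against 5.49, 5.36 and 5.04 in RH30-SR cells, and its 0.35 ± 0.12 did not pass (adjusted p = 0.17). A further 5 genes passed the adjusted p but not the fold, ZNF407-AS1, RHPN1-AS1 and STARD4-AS1 on the lower side, with -0.31, -0.30 and -0.28, and FRMD6-AS1 and LOXL1-AS1 on the higher side, with 0.29 and 0.27.

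The antisense genes of highest level, other than AGAP2-AS1, were not called. EMC3-AS1 averaged 7.97 ± 0.050 in RH30-SR MyoDΔ cells and 8.02 ± 0.13 in RH30-SR cells (SD, n = 3 each), and TMPO-AS1, which starts near the gene of a nuclear lamina protein, averaged 7.50 ± 0.040 in RH30-SR MyoDΔ cells and 7.54 ± 0.090 in RH30-SR cells. HNRNPU-AS1 averaged 7.40 ± 0.092 in RH30-SR MyoDΔ cells and 7.52 ± 0.27 in RH30-SR cells. OIP5-AS1, an abundant RNA known as cyrano that binds miR-7, averaged 7.32 ± 0.067 in RH30-SR MyoDΔ cells and 7.48 ± 0.12 in RH30-SR cells, a difference of -0.16 ± 0.075 (adjusted p = 0.315). At the level threshold, TSPOAP1-AS1 (5.002), SH3RF3-AS1 (5.01) and BAALC-AS2 (5.02) lay just inside, and TTC28-AS1, SHANK2-AS3 and HOXC-AS1 (4.99 each) just outside.

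Below the threshold 4 of 541 antisense genes (0.739%) were called, against 2.2% of all genes below 5. PAPPA-AS1 had -0.84 ± 0.067 (adjusted p = 0.000648) beside -0.85 ± 0.069 for PAPPA, a protease of IGF-binding proteins, and SOX9-AS1 had -0.63 ± 0.053 (adjusted p = 0.000865) beside -0.48 ± 0.062 for SOX9, a factor of cartilage and progenitor cells. SPIN4-AS1 had -0.43 ± 0.089 (adjusted p = 0.0375) and FAR2-AS1 had 0.41 ± 0.057 (adjusted p = 0.00808), each with its partner called in the same direction.

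Of the 220 antisense genes, 200 had a measured partner, and 20 of these partners (10%) were called, 7 higher and 13 lower. Both genes were called in 3 pairs, all lower, the antisense gene alone in 5, the partner alone in 17 and neither in 175, and no pair was called in opposite directions. Over the 200 pairs the 2 changes had the same sign in 108, opposite signs in 88 and a value of 0 for a gene in 4. Their correlation was 0.32 by Pearson and 0.22 by Spearman, and without the 3 pairs that were called together it was 0.19 and 0.18. Both genes of a pair were read on the same arrays and share their normalization, and these correlations across pairs carry no test.

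**Figure D4:**
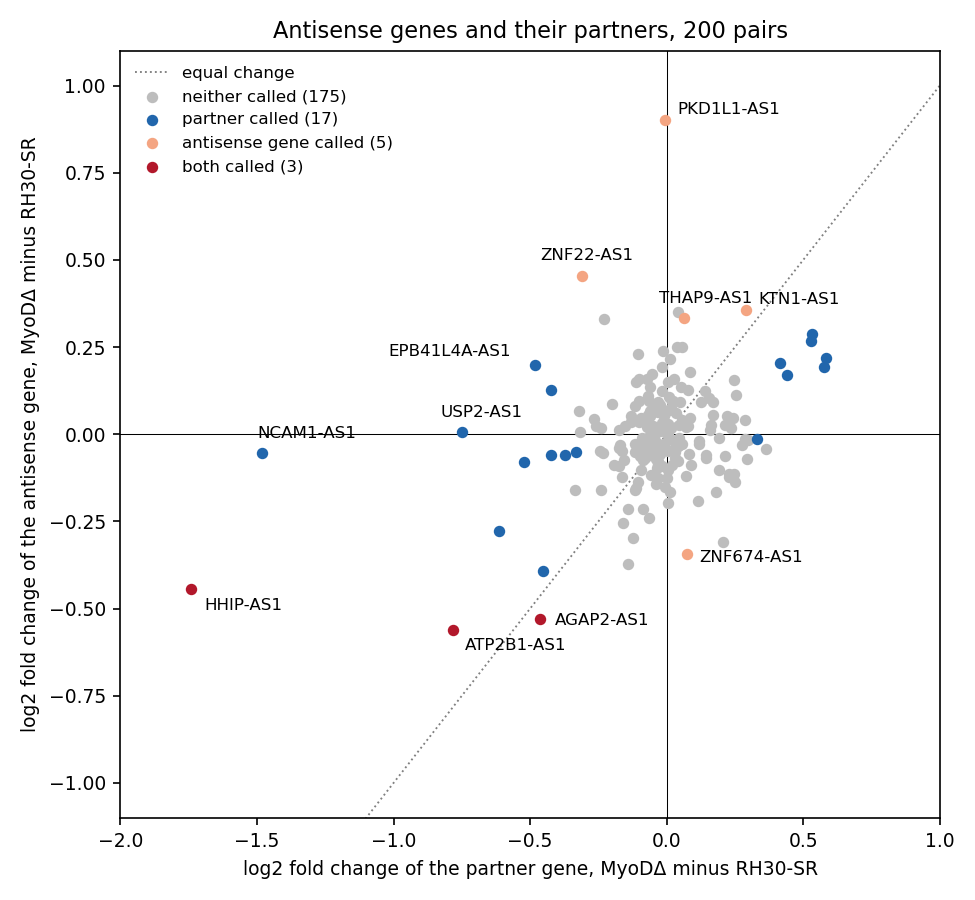
Log2 fold change of 200 antisense genes against that of their partners, RH30-SR MyoDΔ minus RH30-SR, with the dotted line for equal change and colors for which gene was called. HHIP-AS1, ATP2B1-AS1 and AGAP2-AS1 lie on the lower left with both genes called, and NCAM1-AS1 lies at -0.05 with NCAM1 at -1.48.

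In the 20 pairs whose partner was called, the antisense gene lay on the same side as its partner in 16. Over all 200 pairs the antisense gene moved by less than its partner in 111, and the pairs with a called partner, being chosen for a large change of the partner, are not read for this. The largest gap was at NCAM1, a neural cell adhesion molecule that is also made by myoblasts. NCAM1 measured 7.41, 7.36 and 7.39 in RH30-SR MyoDΔ cells, against 8.87, 8.88 and 8.86 in RH30-SR cells, a difference of -1.48 ± 0.047 (adjusted p = 1.30e-05), while NCAM1-AS1 had -0.05 ± 0.12 (adjusted p = 0.875). The shift between these genes was 1.43 ± 0.13. USP2, a ubiquitin protease, had -0.75 ± 0.057, beside 0.01 ± 0.054 for USP2-AS1, and EPB41L4A, a member of the band 4.1 family, had -0.48 ± 0.056, beside 0.20 ± 0.054 for EPB41L4A-AS1. NCAM1-AS1 and USP2-AS1 had mean levels of only 5.02 and 5.17, close to the level threshold, whereas EPB41L4A-AS1 had 7.09. Whether NCAM1-AS1 and USP2-AS1 were transcribed at all was not tested. Their values are therefore not read as antisense RNAs that held their level while the partner fell. The per-array values of the USP2 and EPB41L4A pairs separated the groups, with shifts of 0.76 ± 0.083 and 0.68 ± 0.036. Such separation was common, since it held in 80 of the 200 pairs and in 14 of the 20 with a called partner.

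The remaining called partners on the lower side were STARD4, a sterol carrier (-0.61), UXT, a chaperone-like cofactor (-0.52), PRKX, a protein kinase (-0.42), OXCT1, an enzyme of ketone body use (-0.42), PGM5, an adhesion protein (-0.37), and ZEB1, a repressor that binds E-boxes (-0.33). Of their antisense genes, STARD4-AS1 had the largest value, -0.28, and ZEB1-AS1, UXT-AS1, OXCT1-AS1 and PGM5-AS1 lay between -0.08 and -0.05, whereas PRKX-AS1 lay at 0.13. On the higher side, the partners were FUT8, which adds core fucose to glycans (0.58), SERTAD4 (0.58), FRMD6, a FERM domain protein (0.53), LOXL1, which crosslinks elastin (0.53), RASAL2, which inactivates Ras (0.44), HIF1A, the oxygen-regulated transcription factor (0.41), and ITFG2 (0.33). Of their antisense genes, 6 lay above 0, between 0.17 and 0.29, none of them called, and ITFG2-AS1 lay at -0.01. Of the 20 called partners, 14 kept their calls with any array left out. The calls on HIF1A, MID1IP1 and ZEB1 were lost in 5 of the 6 fits with an array left out, with adjusted p values of up to 0.106, 0.128 and 0.118, and those on PGM5 and ITFG2 in 2 and 1.

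**Figure D5:**
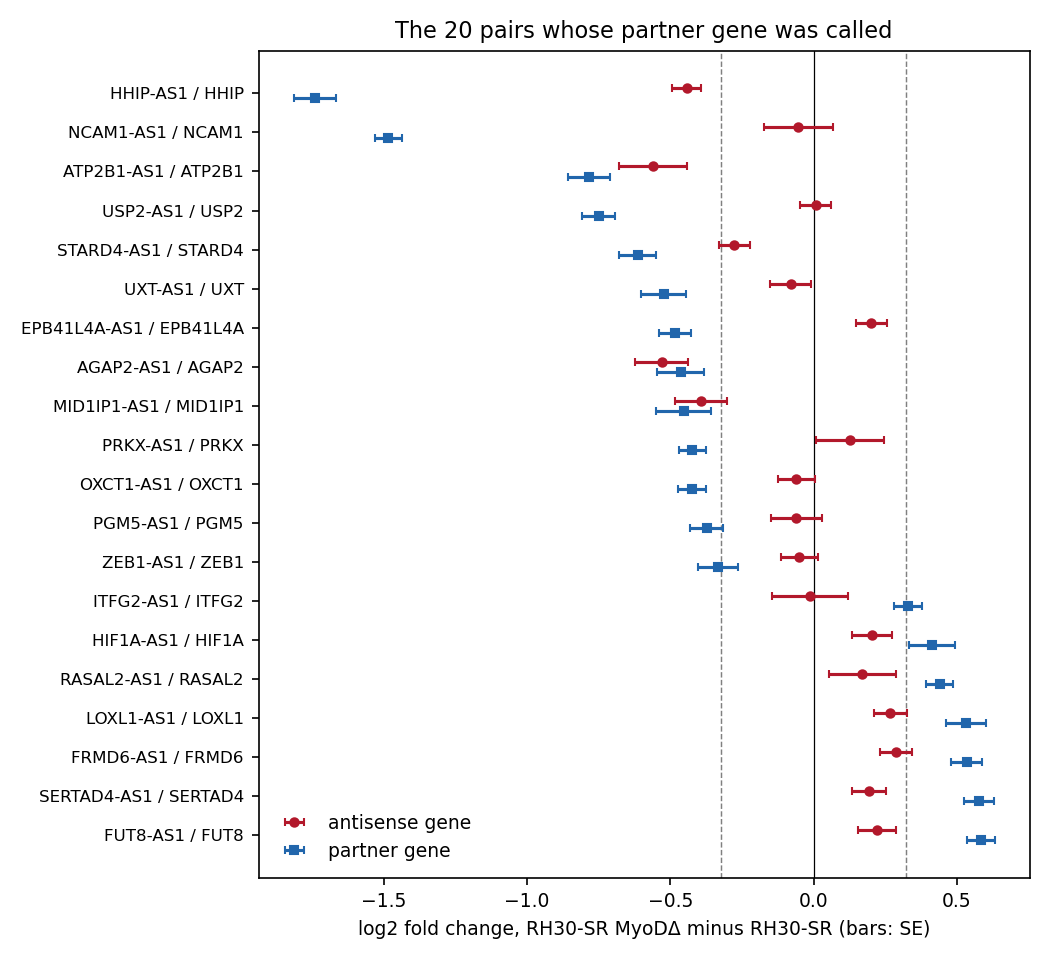
Log2 fold change, RH30-SR MyoDΔ minus RH30-SR, of antisense genes (circles) and partners (squares) in the 20 pairs whose partner was called, with SE as bars and a fold of 25% as dashed lines. The antisense value lies on the same side of 0 as the partner's in 16 of the pairs.

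By the RefSeq arrangement, 67 pairs had starts within 1000 bases of each other on opposite strands, whether or not the genes overlapped. Of the others, 73 overlapped with starts farther apart, 6 had starts farther apart and no overlap, and 54 could not be placed. Of the 67 antisense genes with near starts, 6 were called, of 8 called with a partner in all. Over all genes at 5 or more 10.3% were called, so that 6 of 67 is not read as an excess. The calls on ZNF674-AS1 and THAP9-AS1, both among the 6, were lost with any single array left out. In the 67 pairs, 42 had changes of the same sign and 23 of opposite sign, with a Pearson correlation of 0.44 and a Spearman correlation of 0.27. Without the HHIP and ATP2B1 pairs these correlations were 0.16 and 0.20. In the 73 overlapping pairs the counts were 39 and 32, with correlations of 0.43 and 0.28, and 0.36 and 0.26 without the AGAP2 pair. The 54 pairs that could not be placed had 27 of each sign, with correlations of 0.11 and 0.19. The 6 pairs with starts farther apart and no overlap all had opposite signs, none with a call. FOXD2-AS1 was among them at 0.16 ± 0.083, with FOXD2 at -0.10 ± 0.10. Some of these signs rest on values near 0, such as 0.003 ± 0.047 for FGD5 and 0.01 ± 0.056 for PPP1R26-AS1. Of the 6 partners, 3 lay below a level of 5. Pairs without overlap but with near starts, such as those of ZNF674 and RASAL2, are not among these 6. No comparison between arrangements was tested.

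Windows of 300 bases at the start were found for 177 of the 220 antisense genes. A CANNTG match was present in 65.5% of them, against 68.9% of all 27305 RefSeq promoters, and a CAGCTG match in 22.0%, against 17.7%. Of the 8 called genes with a window, 4 had a CANNTG match, and 2 of these, DLGAP1-AS1 and ATP2B1-AS1, had CAGCTG. The ratio of observed to expected CpG was over 0.6 in 64.4% of the antisense windows, near the 65.7% of protein-coding promoters and above the 25.7% of lncRNA promoters. The median GC content of the windows was 65.0%.

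Antisense genes of known loci were also read by the role of the partner. Of 7 measured antisense genes of muscle genes, 3 were expressed, CACNA1C-AS1 (-0.03), NEBL-AS1 (-0.02) and MYLK-AS1 (0.00), and none of the 7 was called, with a median of 0.00. Over all genes, 10.3% at 5 or more and 2.2% below 5 were called, so that 0 calls of 7 says little. The muscle list was not complete, since NEXN-AS1 (0.33 ± 0.12, adjusted p = 0.181), not called either, was outside it. Of 29 antisense genes of transcription factors, 9 were expressed and 2 were called, both lower. These were ZNF674-AS1, the only call among the 9, and SOX9-AS1, which lies below 5 and is given above. The median over the 29 was -0.04. HIF1A-AS1 had 0.20 ± 0.069 (adjusted p = 0.163) and FOXD2-AS1 the value given above. None of 7 antisense genes listed under the cell cycle and DNA was called, with a median of -0.03, and none of 16 listed under matrix and adhesion, with a median of 0.05. These lists were loose, since ATP6V0E2-AS1 in the first lies opposite a proton pump subunit, and the partners of TMEM9B-AS1 and PTOV1-AS1 in the second are not matrix genes. VIM-AS1, opposite the intermediate filament gene VIM, had 0.12 ± 0.072 (adjusted p = 0.43). Of 24 measured widely expressed RNAs of this kind, DLGAP1-AS1 was lower and HCG18, which bears no -AS symbol, was higher (0.42 ± 0.071, adjusted p = 0.017), with a median of 0.00. The median of all genes at 5 or more was -0.01. The lists hold genes on both sides of 5, and their few calls were not tested against the 10.3% and 2.2% called over all genes.

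The nuclear exosome, which degrades many antisense RNAs, was also measured. Of 28 genes listed for its subunits and cofactors, 2 were called higher and 1 lower and 25 had no call. This share was near the 10.3% of all genes at 5 or more, and the median was 0.03. This list was loose too, since XRN2 and PCF11 in it are not parts of the exosome. DIS3, a catalytic subunit, was higher by 0.39 ± 0.061 (adjusted p = 0.0122). ZCCHC7, an adaptor of the TRAMP complex, was higher by 0.33 ± 0.060 (adjusted p = 0.0222), and EXOSC5, a core subunit, had -0.46 ± 0.078 (adjusted p = 0.0167). Of 25 genes for binding and editing of double-stranded RNA, only PRKRA, an activator of the kinase PKR, was called, with -0.41 ± 0.051 (adjusted p = 0.00487), and the median was -0.01. The editing enzyme ADAR had 0.07 ± 0.051 (adjusted p = 0.521).

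Names of this class are not all settled. RefSeq lists 213 of the 220 genes under an -AS symbol and 3 as divergent transcripts, and the remaining 4 otherwise. HNRNPU-AS1 is filed there under HNRNPU itself, so that which strand its cluster reads was not worked out here (-0.12 ± 0.13, adjusted p = 0.725), and none of the other 3, PSMD5-AS1, FAM83H-AS1 and MMP24-AS1, was called. A total of 7 antisense genes had 2 clusters, none of them called.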

How the data were processed

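RH30-SR MyoDΔ and RH30-SR cells were measured on 3 arrays each. The authors deposited log2 values per transcript cluster, made with RMA, which corrects background, brings arrays to a common distribution by quantiles and summarises probes by median polish. For software, Affymetrix Expression Console is named in the submitters' processing notes and the oligo package in the methods of the study; build and versions: not given in the sources used here. Quantile normalization hides a change shared by most transcripts. Array number limits the precision. A second deposited table held the same values and was not used.

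Of 65535 clusters, 22758 carried 1 gene symbol by the platform annotation, 1389 carried several and 41388 none. Differences were computed with limma 3.58.1 in R 4.3.3 (lmFit and eBayes, group as the only term, all clusters), subtracting RH30-SR from RH30-SR MyoDΔ, with Benjamini-Hochberg adjustment over all clusters; all adjusted p values are two-sided and from this fit. ± is the SE unless SD is stated. The change of a pair was taken per array as antisense minus partner, with a two-sided exact permutation test. The script was tested on simulated data.

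Partners were found by removing the -AS ending, and 1 was matched by an older symbol. All 220 genes matched RefSeq (GRCh38.p14), which gave names, arrangement and promoter windows. The genes, the 12 gene lists and the tests were chosen with earlier results of these data known. The naming rule took every called gene, the 12 largest changes, the 5 highest levels, genes at the level threshold, pairs called together and up to 3 genes a list. Genes that passed only the p threshold, called partners with their antisense genes, called genes below the level, NEXN-AS1 and called genes of the exosome and RNA-binding lists were named after their values were seen. Alternatives were other normalizations, array weights, another prior, filters, levels and thresholds, the replicate number as a block, and each array left out.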

Additional observations from a re-analysis of the deposited data

How the results depend on the processing

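The count of 9 called antisense genes stayed between 8 and 11 under quantile, median or cyclic loess normalization, array weights, another prior, other sets for the adjustment, the mean of clusters, a level of 4.5 and, chosen after seeing the data, without the X chromosome. The deposited values were already quantile normalized, so a further normalization could change little and is a weak check. The mean of clusters left the values of the called genes as they were, each having 1 cluster. The count was 14 with no fold threshold and 5 at a level of 6 or more. With 1 array left out it ran from 4, without RH30-SR replicate 3, to 8, without RH30-SR replicate 1, with 5 without each RH30-SR MyoDΔ array and 6 without RH30-SR replicate 2. DLGAP1-AS1, HHIP-AS1, ZNF22-AS1 and PKD1L1-AS1 kept their calls in all 6 of these fits. The 3 pairs with both genes called became 5 with array weights, 7 with no fold threshold and 5 at a level of 4.5 or more, and ran from 1 to 3 with an array left out, the 1 being HHIP-AS1 and HHIP. The cause was not tested. ZNF674-AS1 was also lost under median centring and THAP9-AS1 with array weights, and MID1IP1-AS1 was gained in both. Of 63 genes whose change was followed through the alternatives, no called gene changed sign, and 9 others changed sign in some setting, all with a size of 0.1 or less and an adjusted p of 0.693 or more.

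Deviations of same-numbered arrays correlated at -0.05, -0.04 and 0.03, which does not settle whether same-numbered cultures were handled together. The labels do not say so either, and no pairing was used in the main fit. With the replicate number as a block 7 antisense genes and 2 pairs were called, and ZNF674-AS1 (adjusted p = 0.102) and THAP9-AS1 (0.113) were lost. The second deposited table holds the same values and was not run. Without a background measure in the files, no detection limit was set. Probe overlap between the strands of a locus was not checked.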
